A study of Mus musculus with 16 samples.

Results

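The rows described here are the collagen genes of mouse tibial bone other than 8 classical fibrillar chains. They were chosen by name: every row called Col, a type number, the letter a and a chain number, leaving out Col1a1, Col1a2, Col2a1, Col3a1, Col5a1, Col5a2, Col11a1 and Col11a2. The rule took 36 of the 47517 rows in the count files, and 11 of the 36 averaged 10 or more fragments over the 16 libraries. In falling order these 11 were Col10a1, Col17a1, Col24a1, Col4a4, Col6a2, Col23a1, Col12a1, Col4a6, Col22a1, Col27a1 and Col13a1. They held 76.7% of the 6496 fragments counted for all 36, and Col10a1 alone held 37.7%. Col13a1 was just inside the minimum, with a mean of 10.4 fragments, and Col15a1 (9.81) and Col14a1 (9.5) were just outside it. Col5a3, Col24a1 and Col27a1 belong by structure to the fibrillar class, and were kept because the rule names only the 8 chains above.

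Collagens are built from chains that wind into a triple helix, which needs glycine at regular steps along the chain. Fibrillar collagens form the banded fibrils that give bone its tensile strength. The other classes form sheets, beaded filaments, links on the fibril surface or membrane anchors, and they tie cells to the matrix and basement membranes to the tissue around them.

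The libraries came from cortical bone of the tibiae of 16-week-old male mice, with marrow flushed out by centrifugation. Mice were Ctrl or NT3-Cre+ (NT3 below), 4 of each genotype, and the series title describes the model as switching on the kinase NIK in cells of the bone lineage. The Cre driver, the allele carried and the genotype behind Ctrl are not given in the sources used here. In every mouse the right tibia received axial compression for 9 days, 1200 cycles a day at 4 Hz, while its left tibia served as the non-loaded limb. The force differed by genotype, 8.7 N for Ctrl mice but 10 N for NT3 mice, to reach -2000 microstrain in both, so genotype and force cannot be told apart in loaded limbs. Bone was taken 4 hours after the last bout. This gives 4 groups of 4 libraries: non-loaded Ctrl, loaded Ctrl, non-loaded NT3 and loaded NT3, with both limbs of a mouse paired.

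Library totals ran from 758394 to 1064391 counted fragments, so a row averaging 10 fragments carries a large counting error, and the RNA had a mean integrity number of 5.4. Of 16 osteoblast and osteocyte markers, 11 averaged 10 or more fragments, among them Ibsp and Dmp1, but Bglap, the osteocalcin gene that defines mature osteoblasts, averaged 0.81 fragments. In Ctrl the list summed to 580 to 796 CPM (counts scaled to a common library size) without loading and 793 to 934 with it, and in NT3 to 554 to 854 and 614 to 816. Summed marrow markers, 20 genes, spanned 92.3 to 173 and 82.5 to 104 CPM in Ctrl, and 99.1 to 146 and 77.6 to 124 in NT3. Skeletal muscle markers, also 20 genes, spanned 440 to 750 and 403 to 760 CPM in Ctrl, and 462 to 902 and 405 to 702 in NT3. Of these lists 3 marrow and 8 muscle rows averaged 10 or more fragments, so the sums rest on few rows. Ttn averaged 235.25 fragments, but Acta1 averaged 1.19 and Ckm 4.81, and the marrow row Hba-a1 averaged 0.38. In bulk tissue, fewer cells of a type and less RNA per cell cannot be told apart.

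The strand setting of the authors' counting is not given in the sources used here. Where a gene on the other strand covers the same bases, the fragments of both genes cannot be told apart, and a row may hold fragments of the opposite strand. None of the 11 described rows shared 20 or more exon bases with a gene on the other strand, and 6 of the 36 did. Col10a1 came close, with 18 bases shared with Nt5dc1, as did Col22a1, with 16 shared with Gm16308. A gene on the other strand lay somewhere in the span of 5 of the 11. A row without such a gene may hold fragments of the opposite strand too, so the levels below are those of rows.

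The chains differed in how their triple-helix sequence is laid out. In GENCODE transcripts, the longest unbroken run of glycine-led triplets was 338 to 344 triplets in the 8 fibrillar chains left out. Over the 36 rows it ran from 23 to 337, with a median of 45. Col24a1 (216 triplets) and Col27a1 (217) had the longest runs of the 11 described rows, and Col5a3 (337) was the longest of all. The basement membrane chain Col4a4 had 27 separate runs of at least 3 triplets, the longest of 45. Col12a1, a large chain of 3065 residues that sits on the fibril surface, had 8.1% of its residues in such triplets, and its longest run was 32. Col6a1 and Col6a2 each had a longest run of 87 triplets, and Col6a3 one of 45.

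Promoters are shown for the most abundant row, Col10a1, and for Col6a2 and Col6a3, a pair of chains of 1 protein that passed the test for loading in Ctrl. Each line is the 250 bases before a RefSeq start site on GRCm38.p6 that equals the GENCODE start, 5′ to 3′ on the gene's own strand. Capitals mark matches, on either strand, to any of 5 motifs that were searched. The TATA box was spelled TATAAA and the CCAAT box by its name. The GC box was searched for as GGGCGG, the binding site of AP-1 factors as TGACTCA, and the Smad box as GTCTAGAC.
Col10a1, chr10:34389731-34389980, plus strand: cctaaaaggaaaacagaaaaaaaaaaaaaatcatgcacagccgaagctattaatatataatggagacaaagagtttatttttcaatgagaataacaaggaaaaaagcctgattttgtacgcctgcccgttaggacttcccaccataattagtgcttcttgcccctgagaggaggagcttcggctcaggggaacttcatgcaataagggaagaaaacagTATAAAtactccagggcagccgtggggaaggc
Col6a2, chr10:76623631-76623880, minus strand: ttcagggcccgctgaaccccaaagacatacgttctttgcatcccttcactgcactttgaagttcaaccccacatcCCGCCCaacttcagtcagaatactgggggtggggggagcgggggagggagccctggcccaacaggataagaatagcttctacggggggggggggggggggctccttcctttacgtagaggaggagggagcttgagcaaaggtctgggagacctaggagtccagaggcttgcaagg
Col6a3, chr1:90843972-90844221, minus strand: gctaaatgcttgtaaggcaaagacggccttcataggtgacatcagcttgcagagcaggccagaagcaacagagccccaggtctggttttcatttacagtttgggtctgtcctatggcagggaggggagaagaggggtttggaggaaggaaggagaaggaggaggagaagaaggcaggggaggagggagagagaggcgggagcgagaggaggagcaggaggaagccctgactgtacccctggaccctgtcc

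Col10a1 had TATAAA beginning at position -32, Col6a2 had a GC box on the reverse strand (CCGCCC) at -175, and Col6a3 had none of the 5 motifs in these letters. RefSeq gives Col6a2 another start further downstream, whose window is not shown and holds 3 GC boxes. Of 32851 RefSeq windows of 300 bases, 13.6% held TATAAA, 37.4% CCAAT, 35.7% GGGCGG, 5.2% TGACTCA and 0.213% GTCTAGAC. Promoter windows were matched for 30 of the 36 genes, Col12a1 not among them.

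Compared per length and averaged over all groups, Col10a1 had the highest mean of the 44 collagen rows, at 57.1 ± 6.3 CPM per kilobase (mean ± SD, 16 libraries). Col10a1 encodes type X collagen, the network-forming collagen of hypertrophic cartilage. Col1a1, the main chain of bone matrix, followed at 31.2 ± 19.4, but its level depended on the group. In loaded Ctrl limbs Col10a1 and Col1a1 were level, at 55.1 ± 6.3 and 54.9 ± 13.3 CPM per kilobase, while in non-loaded Ctrl limbs they stood at 57.4 ± 3.32 and 14.5 ± 10.7 (SD of 4 libraries). In NT3 they stood at 60.4 ± 9.39 and 17 ± 6 without loading and at 55.3 ± 5.95 and 38.4 ± 9.91 with it. Over all libraries Col1a2 followed at 10.1 ± 5.42 and Col11a2 at 8.15 ± 5.02. Col17a1, a membrane collagen of cell anchoring, came next at 5.44 ± 0.997 CPM per kilobase. Of 12 cartilage marker rows found, 2 averaged 10 or more fragments. Prg4, the lubricin gene of joint surfaces, averaged 175.75 fragments against 153.1 for Col10a1, and Chad averaged 40.75, while Acan averaged 1 fragment and Matn1 had 0 in all libraries. Neighbours from Col24a1 (3.5 ± 1.61) through Col23a1 (2.72 ± 0.891), Col13a1 (2.69 ± 1.51), Col4a4 (2.46 ± 0.854) and Col6a2 (2.4 ± 1.7) down to Col4a6 (1.64 ± 0.613) did not differ beyond their spread. Further down on this scale were Col22a1 at 1.38 ± 0.616, Col12a1 at 0.979 ± 0.533 and Col27a1 at 0.968 ± 0.479.

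**Figure D1:**
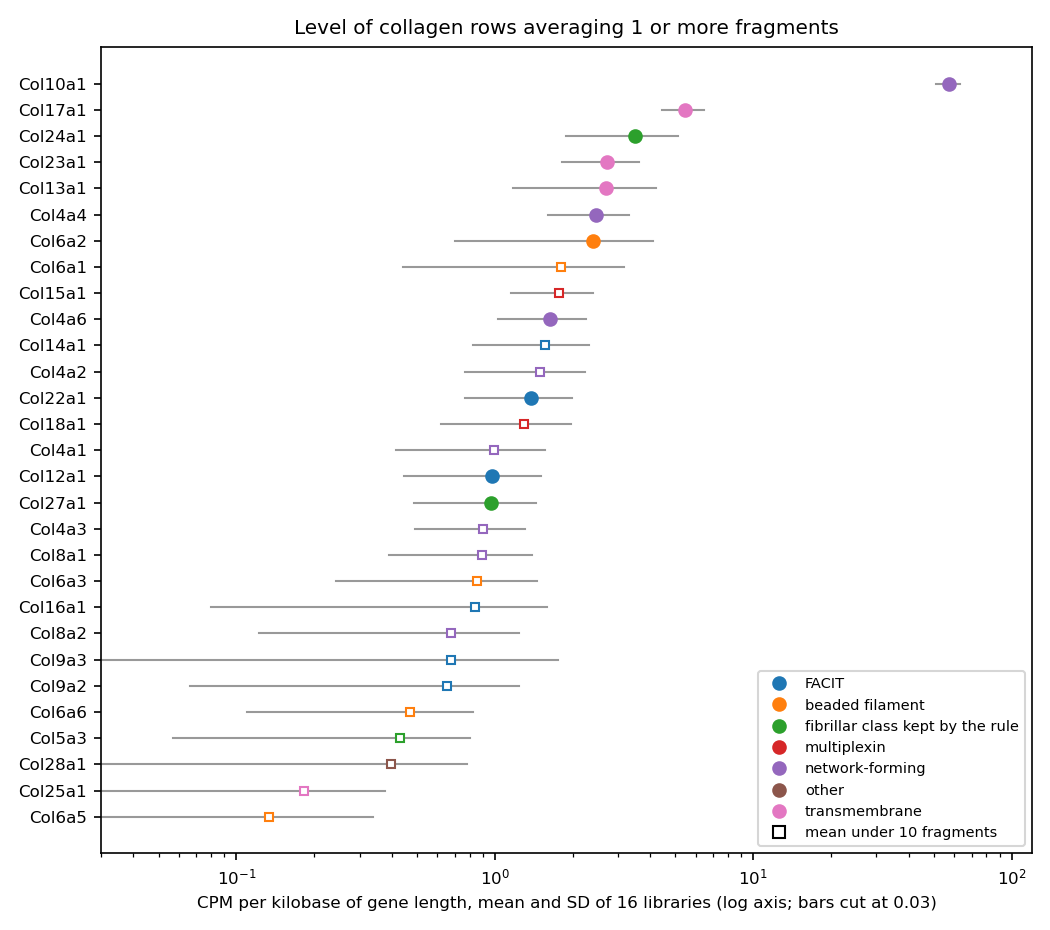
Level of each collagen row of the rule that averaged 1 or more fragments, in CPM per kilobase on a log axis; points are means and bars the SD of 16 libraries, colour is the structural class, and open squares averaged under 10 fragments. Col10a1, at 57.1, lies far to the right of the next row, Col17a1, at 5.44.

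Loading of Ctrl tibiae raised 3 of the 17 collagen rows that could be tested, and these came from type VI collagen and Col12a1. Col6a2 rose 4.17-fold, Col6a3 4.08-fold and Col12a1 3.19-fold, and none of the 17 fell. Over all 7192 rows tested, 4.07% were called in this comparison, 3.07% higher and 1.00% lower (edgeR quasi-likelihood test, adjusted p under 0.05). The median log2 fold change of the 17 was 0.41, against -0.03 over all rows tested, with 13 above 0 and 4 below. At an unadjusted p under 0.05, 6 of the 17 were higher and 0 lower, against 574 higher and 487 lower of all 7192. In Ctrl, more loaded than non-loaded libraries reached the level asked by the low-count filter for the called rows Col6a2, Col12a1 and Col6a3. The same held for Col6a1, Col14a1, Col13a1, Col4a6, Col15a1, Col22a1 and Col4a4, and the reverse for Col4a3, Col27a1 and Col23a1. Col6a2 reached it in 4 loaded and 1 non-loaded Ctrl libraries, and in 3 loaded and 3 non-loaded NT3 libraries. The median and counts of the 17, here and in the later loading comparisons, therefore only describe the rows tested.

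Type VI collagen forms the beaded filaments around cells, and each unit joins the chains encoded by Col6a1, Col6a2 and one longer chain, most often that of Col6a3. The Col6a2 row held 7.06, 8.18, 7.55 and 13.2 CPM in non-loaded and 27.4, 41.5, 27.5 and 56.5 CPM in loaded limbs of Ctrl mice 1 to 4. Every loaded Ctrl limb was above every non-loaded one. How many of all rows separate in this way was not counted, here or below, so separation only describes a row. Its log2 fold change was 2.06 (SE 0.37, adjusted p = 1.21e-04, edgeR), and it passed the test under all 13 alternatives, between 1.97 and 2.12. In NT3 mice 1 to 4, Col6a2 held 15.2, 10.2, 12.9 and 10.7 CPM in non-loaded and 21.5, 21, 6.58 and 32.2 CPM in loaded limbs. The NT3 groups overlapped, since mouse 3 was lower in its loaded limb, and the log2 fold change was 0.67 (SE 0.38, adjusted p = 0.756).

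The Col6a3 row was below the minimum mean, at 8.88 fragments. It held 2.35, 2.34, 4.31 and 11.2 CPM in non-loaded and 20.3, 23.7, 11.8 and 24.8 CPM in loaded limbs of Ctrl mice 1 to 4, and all 4 mice were higher in the loaded limb. The log2 fold change was 2.03 (SE 0.52, adjusted p = 0.0122), but without Ctrl mouse 1 (adjusted p = 0.102) or mouse 2 (adjusted p = 0.167) the row no longer passed. In NT3 limbs it held 5.44, 9.03, 7.74 and 8.53 CPM non-loaded and 6.46, 15.4, 3.95 and 5.61 CPM loaded. Here 2 of 4 mice were higher in the loaded limb, with a log2 fold change of -0.03 (SE 0.54, adjusted p = 0.997).

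Col6a1, averaging 6.62 fragments, had 0 fragments in the non-loaded limbs of Ctrl mice 1 and 2, and 5.39 and 7.12 CPM in mice 3 and 4. Loaded Ctrl limbs held 11.9, 13.8, 18.3 and 9.04 CPM, above every non-loaded limb. The log2 fold change of 2.13 (SE 0.66, adjusted p = 0.0549) missed the threshold, and it was 3.12 (adjusted p = 0.0143) without Ctrl mouse 4. NT3 limbs held 2.18, 5.65, 3.87 and 8.53 CPM non-loaded and 5.39, 6.99, 6.58 and 21 CPM loaded, higher in the loaded limb of 4 of 4 mice but overlapping (0.93, SE 0.65, adjusted p = 0.84). Type VI chains of the other loci were scarce, from a mean of 3.56 fragments in Col6a6 to 1 in Col6a5 and 0.75 in Col6a4, and were not tested. Col6a3 and Col6a1 reached the level asked by the filter in 3 and 2 loaded Ctrl libraries against 1 and 0 non-loaded ones, so they entered the test largely through the group where they were high.

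Col12a1, Col14a1 and Col22a1 belong to the collagens that attach to fibril surfaces without forming fibrils. The Col12a1 row held 8.23, 5.84, 5.39 and 6.11 CPM in non-loaded and 28.6, 16.8, 11.8 and 27.1 CPM in loaded limbs of Ctrl mice 1 to 4. These groups did not overlap, and the log2 fold change was 1.67 (SE 0.42, adjusted p = 0.0121). No non-loaded Ctrl library reached the level asked by the filter for Col12a1 and 3 loaded ones did, so it too entered the test through groups where it was high. It missed the threshold with DESeq2 (adjusted p = 0.0502) and without Ctrl mouse 1 (0.0754) or mouse 4 (0.0858). In NT3, non-loaded limbs held 14.2, 6.78, 20.6 and 9.6 CPM and loaded limbs 22.6, 11.2, 17.1 and 26.6 CPM, with 3 of 4 mice higher in the loaded limb (0.62, SE 0.40, adjusted p = 0.81).

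Col22a1, known from tissue junctions such as that of muscle and tendon, had its larger value in NT3, though it passed in neither genotype. Ctrl limbs held 14.1, 4.67, 11.9 and 18.3 CPM non-loaded and 15.5, 12.8, 10.5 and 21.5 CPM loaded (log2 0.34, SE 0.42, adjusted p = 0.787). NT3 limbs held 4.36, 13.6, 6.45 and 3.2 CPM non-loaded and 12.9, 21, 15.8 and 16.8 CPM loaded. All 4 NT3 mice were higher in the loaded limb, and the ranges overlapped between 12.9 and 13.6 CPM (1.34, SE 0.46, adjusted p = 0.33). Col14a1, at 9.5 fragments, had a log2 fold change of 1.19 (SE 0.49, adjusted p = 0.215) in Ctrl and 0.37 (SE 0.47, adjusted p = 0.941) in NT3. Col16a1 averaged 4.81 fragments, and Col9a3, Col9a2, Col19a1 and Col20a1 between 2.06 and 0.19. Col9a1 had 0 fragments in all 16 libraries, which allows up to 0.211 CPM over the pooled total, counting error only.

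**Figure D2:**
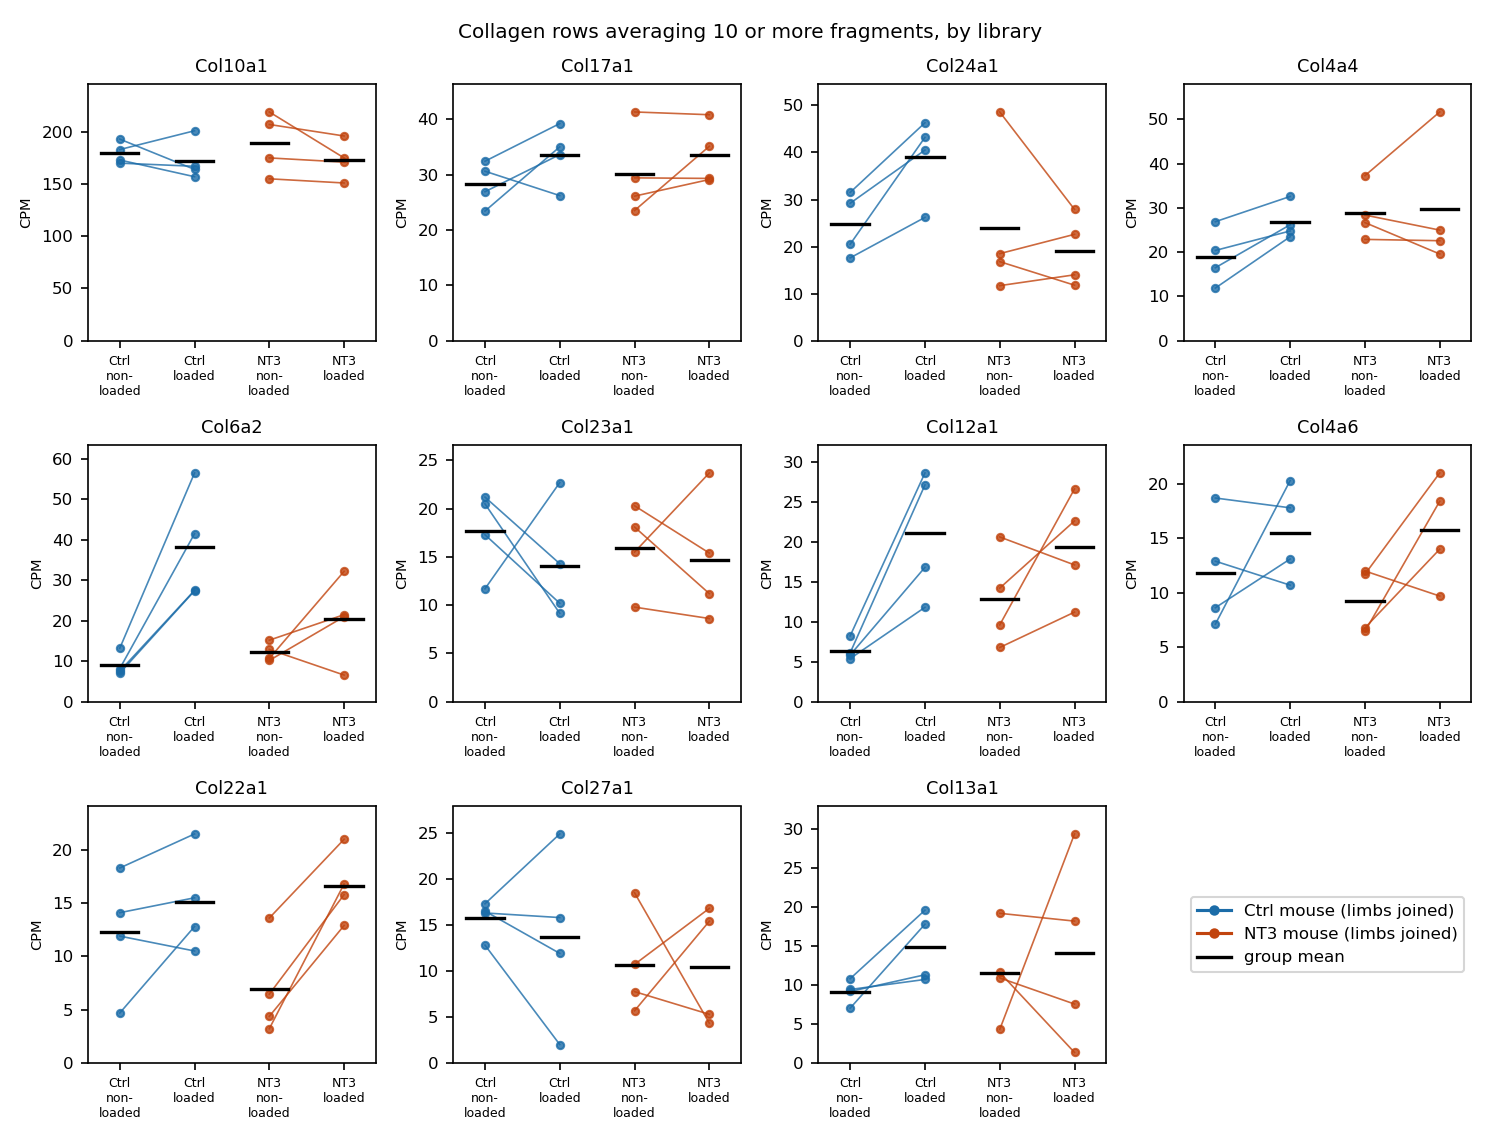
CPM in each library for the 11 collagen rows averaging 10 or more fragments, with limbs of a mouse joined, Ctrl in blue, NT3 in orange and group means as black bars. Col6a2 and Col12a1 show loaded Ctrl limbs above all non-loaded Ctrl limbs, and Col10a1 stays between 151 and 219 CPM in all 16 libraries.

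Among network-forming collagens, Col10a1 held 173, 193, 183 and 170 CPM in non-loaded and 157, 164, 201 and 167 CPM in loaded Ctrl limbs. NT3 limbs held 155, 219, 175 and 207 CPM non-loaded and 151, 175, 171 and 196 CPM loaded. All 4 groups overlapped, and the loaded limb was lower in 4 of 4 NT3 and 3 of 4 Ctrl mice by small amounts. The log2 fold change was -0.06 (SE 0.14, adjusted p = 0.89) in Ctrl and -0.12 (SE 0.14, adjusted p = 0.923) in NT3, the smallest standard errors of the 17 rows.

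Type IV collagen forms the sheets of basement membranes, and its 6 genes lie in head-to-head pairs. Col4a4 held 16.5, 26.9, 11.9 and 20.4 CPM in non-loaded and 26.2, 32.6, 23.5 and 24.8 CPM in loaded limbs of Ctrl mice, higher in the loaded limb of 4 of 4 mice but overlapping between mice (0.52, SE 0.31, adjusted p = 0.456). In NT3 it held 22.9, 37.3, 28.4 and 26.7 CPM non-loaded and 22.6, 51.7, 25 and 19.6 CPM loaded, with mouse 2 the highest in both limbs (-0.01, SE 0.29, adjusted p = 1). Col4a6 held 12.9, 18.7, 8.63 and 7.12 CPM in non-loaded and 10.7, 17.8, 13.1 and 20.3 CPM in loaded Ctrl limbs (0.41, SE 0.43, adjusted p = 0.726). Its NT3 limbs held 12, 6.78, 6.45 and 11.7 CPM non-loaded and 9.7, 14, 18.4 and 21 CPM loaded (0.73, SE 0.45, adjusted p = 0.793). The major pair of most basement membranes, Col4a1 and Col4a2, averaged only 6.38 and 8.56 fragments and was not tested, and Col4a5 averaged 0.12. Col4a3, the partner of Col4a4, averaged 7.88 fragments and had log2 fold changes of -0.73 (SE 0.51, adjusted p = 0.544) in Ctrl and -0.47 (SE 0.56, adjusted p = 0.93) in NT3. Col8a1 and Col8a2, short network collagens, averaged 3.94 and 2.62 fragments.

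Membrane-spanning collagens did not pass the test in either genotype. Col17a1, the hemidesmosome collagen, held 30.6, 26.9, 32.4 and 23.4 CPM in non-loaded and 26.2, 33.6, 39.2 and 35.0 CPM in loaded Ctrl limbs (0.25, SE 0.27, adjusted p = 0.752). In NT3 it held 26.1, 29.4, 41.3 and 23.5 CPM non-loaded and 29.1, 29.3, 40.8 and 35.1 CPM loaded (0.17, SE 0.28, adjusted p = 0.964), and its groups overlapped throughout. Col23a1 held 21.2, 11.7, 20.5 and 17.3 CPM in non-loaded and 14.3, 22.7, 9.16 and 10.2 CPM in loaded Ctrl limbs, lower in the loaded limb of 3 of 4 mice (-0.34, SE 0.39, adjusted p = 0.762). Its NT3 limbs ran from 9.8 to 20.3 CPM non-loaded and 8.62 to 23.7 CPM loaded. Col13a1, a collagen of cell junctions and the neuromuscular synapse, held 9.41, 7.01, 10.8 and 9.16 CPM in non-loaded and 10.7, 17.8, 19.6 and 11.3 CPM in loaded Ctrl limbs, higher in the loaded limb of 4 of 4 mice though the groups just overlapped (0.68, SE 0.50, adjusted p = 0.575). Loaded NT3 limbs of Col13a1 spread from 1.32 CPM in mouse 3 to 29.4 CPM in mouse 4, and the log2 fold change of 0.13 (SE 0.52, adjusted p = 0.989) became -0.77 without mouse 4. Col25a1, the remaining membrane collagen, averaged 2 fragments.

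Col24a1 and Col27a1 are fibrillar-class chains found in developing bone and cartilage. Col24a1 held 17.6, 29.2, 20.5 and 31.5 CPM in non-loaded and 26.2, 40.5, 43.2 and 46.3 CPM in loaded limbs of Ctrl mice 1 to 4. Each Ctrl mouse was higher in its loaded limb, by 0.46 to 1.04 on the log2 scale with 1 CPM added, yet the row did not pass (0.66, SE 0.29, adjusted p = 0.254). In NT3 it held 18.5, 48.6, 16.8 and 11.7 CPM non-loaded and 22.6, 27.9, 11.8 and 14 CPM loaded, and mouse 2 stood above the rest in the non-loaded limb (-0.23, SE 0.33, adjusted p = 0.951). Col27a1 held 16.5, 12.8, 17.3 and 16.3 CPM in non-loaded and 11.9, 1.98, 24.9 and 15.8 CPM in loaded Ctrl limbs, with loaded values on both sides of the non-loaded ones (-0.37, SE 0.47, adjusted p = 0.792). Its NT3 limbs held 18.5, 5.65, 7.74 and 10.7 CPM non-loaded and 4.31, 15.4, 5.27 and 16.8 CPM loaded (-0.08, SE 0.52, adjusted p = 0.993). Col5a3 averaged 2.38 fragments and was not tested.

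The multiplexins Col15a1 and Col18a1, whose cut ends include the fragment endostatin, averaged 9.81 and 7.88 fragments. Col15a1 had log2 fold changes of 0.28 (SE 0.47, adjusted p = 0.85) in Ctrl and 0.12 (SE 0.47, adjusted p = 0.989) in NT3. Col18a1 had 0.05 (SE 0.54, adjusted p = 0.981) in Ctrl and 0.87 (SE 0.56, adjusted p = 0.81) in NT3, with 4 of 4 NT3 mice higher in the loaded limb. The last rows, Col28a1, Col7a1 and Col26a1, averaged 1.69, 0.88 and 0.88 fragments. In all, 25 rows were under the minimum mean, and 9 of these had fragments in every library.

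Loading of NT3 tibiae called none of the 17 rows with edgeR or DESeq2, and Col22a1 alone was at an unadjusted p under 0.05, where 303 of all 7192 rows were higher and 243 lower. Over all 7192 rows, 0.417% were called, 0.334% higher and 0.0834% lower. The median of the 17 was 0.13, against -0.004 over all rows, with 10 above 0 and 7 below. Col6a2, Col12a1 and Col6a1 had positive values of 0.67, 0.62 and 0.93, each under its value in Ctrl, and Col6a3 had -0.03.

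**Figure D3:**
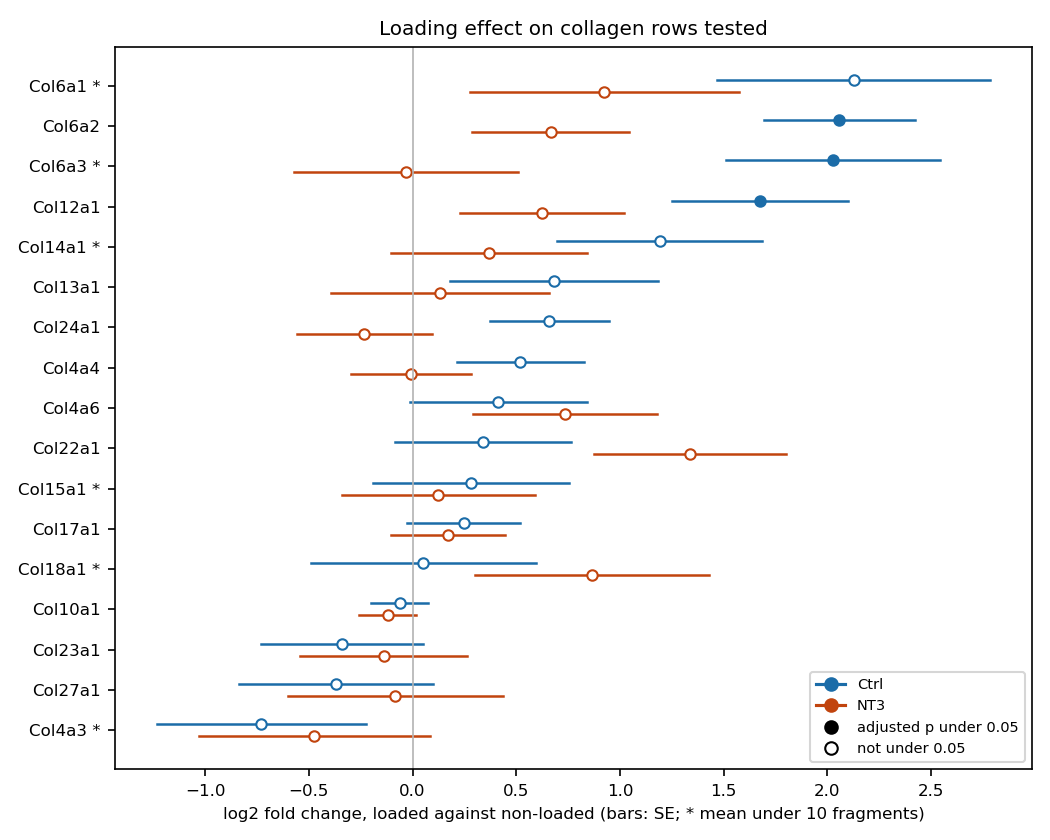
Log2 fold change with its SE for the 17 collagen rows tested, loaded against non-loaded limbs, in Ctrl (blue) and NT3 (orange); filled points passed an adjusted p of 0.05. The 3 filled points are Col6a2, Col6a3 and Col12a1 in Ctrl, and all NT3 points are open.

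The difference between the loading effects, NT3 minus Ctrl, was tested for the same 17 rows and none passed with edgeR or DESeq2. Over all 7192 rows 0.139% were called, all of them lower in NT3. Among type VI chains the difference was -2.06 (SE 0.76, adjusted p = 0.574) for Col6a3, -1.39 (SE 0.53, adjusted p = 0.609) for Col6a2 and -1.20 (SE 0.94, adjusted p = 0.902) for Col6a1. Col12a1 had -1.05 (SE 0.58, adjusted p = 0.813), Col24a1 -0.89 (SE 0.43, adjusted p = 0.747) and Col22a1 0.996 (SE 0.63, adjusted p = 0.859). At an unadjusted p under 0.05, 3 of 17 rows were lower and 0 higher, against 249 lower and 223 higher of all 7192. The loading effects on these collagens were therefore not shown to differ between genotypes, nor to be alike.

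Averaged over both genotypes, loading raised Col6a2 (1.36, SE 0.26, adjusted p = 4.73e-04) and Col12a1 (1.15, SE 0.29, adjusted p = 0.0106). Col6a1 was also past the threshold (1.53, SE 0.46, adjusted p = 0.0471), while 4.39% of all 7192 rows were called, 3.24% higher and 1.15% lower. The median of the 17 was 0.41, against -0.02 over all rows. The Col6a1 call rested on the settings: it was lost under DESeq2 (adjusted p = 0.0605), library totals alone (0.0792), no filter (0.0843) and no replicate block (0.0902). It was also lost without any 1 mouse other than Ctrl mouse 4, at adjusted p between 0.0625 and 0.185. Without NT3 mouse 4, which had the highest loaded Col6a1 value, Col12a1 also missed it (adjusted p = 0.0611) and Col6a2 was the only collagen of the 36 called.

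None of the 36 collagen rows passed the test between genotypes in either limb. In non-loaded tibiae 9 were tested and none passed with edgeR or DESeq2, with 0 at an unadjusted p under 0.05 against 254 higher and 232 lower of all 6220, while 0.579% of these 6220 rows were called, 0.418% higher and 0.161% lower in NT3. The largest values were 0.60 for Col4a4 (SE 0.32, adjusted p = 0.704) and -0.56 for Col27a1 (SE 0.41, adjusted p = 0.843), and the median of the 9 was -0.06 against -0.01 over all rows. Col10a1 averaged 180 ± 10.4 CPM in Ctrl and 189 ± 29.4 in NT3 (SD, n = 4 each).

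In loaded tibiae 13 rows were tested and none passed with edgeR or DESeq2, while 2.65% of 6080 rows were called, 1.32% higher and 1.33% lower in NT3. At an unadjusted p under 0.05, where 410 of all 6080 rows were lower in NT3 and 398 higher, 3 collagen rows were lower: Col24a1 (39.1 ± 8.87 CPM in Ctrl against 19.1 ± 7.51 in NT3, SD of 4 libraries), Col6a3 and Col6a2. Their log2 fold changes were -1.02 (SE 0.32, adjusted p = 0.0826), -1.37 (SE 0.46, adjusted p = 0.113) and -0.92 (SE 0.35, adjusted p = 0.196). Each of the 3 had overlapping groups. Without NT3 mouse 2, Col24a1 (-1.24, adjusted p = 0.0457) and Col6a3 (-1.89, adjusted p = 0.0369) passed. The median of the 13 was 0.00, against -0.002 over all rows.

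The fibrillar chains left out give a scale for these effects. Of 7 tested in Ctrl limbs, 7 were called higher with loading, with a median log2 fold change of 1.79 and Col1a1 at 2.06 (SE 0.17, adjusted p = 6.31e-12). In NT3 limbs Col1a1 (1.19, SE 0.17) and Col11a2 (1.68, SE 0.26) were called. Between loaded limbs Col11a1 was lower in NT3 (-1.34, SE 0.28, adjusted p = 0.0034), and at an unadjusted p under 0.05 all 7 were lower. For the difference between loading effects Col1a2 was called lower (-1.13, SE 0.26, adjusted p = 0.0459), and no fibrillar chain was called between non-loaded limbs with edgeR, where 0 of 7 were at an unadjusted p under 0.05. The Ctrl estimate for Col6a2, 2.06, equals that of Col1a1 to 2 decimals. Of 38 genes that modify and fold collagen chains 13 were tested, and P3h1, a prolyl hydroxylase, was the only one called in Ctrl (2.74, SE 0.60, adjusted p = 0.00219), with none called in NT3 and 1 lower there at an unadjusted p under 0.05. Of 23 basement membrane partners 6 were tested and Sparc, a collagen-binding matrix protein, was called in Ctrl (1.85, SE 0.25, adjusted p = 6.39e-07). Lamc3, a laminin chain, was lower in loaded NT3 than loaded Ctrl limbs (-1.28, SE 0.36, adjusted p = 0.0497). Of 15 collagen receptors 5 were tested and none was called in any comparison with edgeR. At an unadjusted p under 0.05, 1 receptor was higher with loading in NT3 and on average, and 1 was lower in non-loaded NT3 limbs. In loaded Ctrl limbs the summed osteoblast list was mostly higher and the summed marrow list mostly lower than in non-loaded ones. Both ranges overlapped, as given above, and the part of these lists in the collagen results was not tested.

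Several noncoding rows on the other strand of collagen genes held more fragments than the collagen row itself. Gm16308 lies across introns 57 to 59 of Col22a1 and averaged 151.4 fragments against 10.8 for Col22a1. 4930562D21Rik lies in intron 13 of Col12a1 (54.1 against 12.6 fragments) and 9530034A14Rik in intron 24 of Col24a1 (46.1 against 23.2). Gm15419 shares 43 bases with exon 6 of Col4a2 (86 against 8.56), and C430014B12Rik shares 563 exon bases with Col4a3 (104.4 against 7.88). Gm12426 lies across the start of Col15a1 (12.7 against 9.81), and Nt5dc1, whose span contains Col10a1, averaged 13.3 fragments. Only C430014B12Rik and Gm15419 were chosen by their exon overlap, and the others were chosen after their levels were seen.

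The shared stretch of Gm15419 and Col4a2 is shown because fragments from it fit both genes. It lies at chr8:11399704-11399746 on GRCm38, in coding sequence of Col4a2, and is written 5′ to 3′ on each strand.
Col4a2 strand: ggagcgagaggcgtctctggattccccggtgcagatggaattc
Gm15419 strand: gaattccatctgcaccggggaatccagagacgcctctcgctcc

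**Figure D4:**
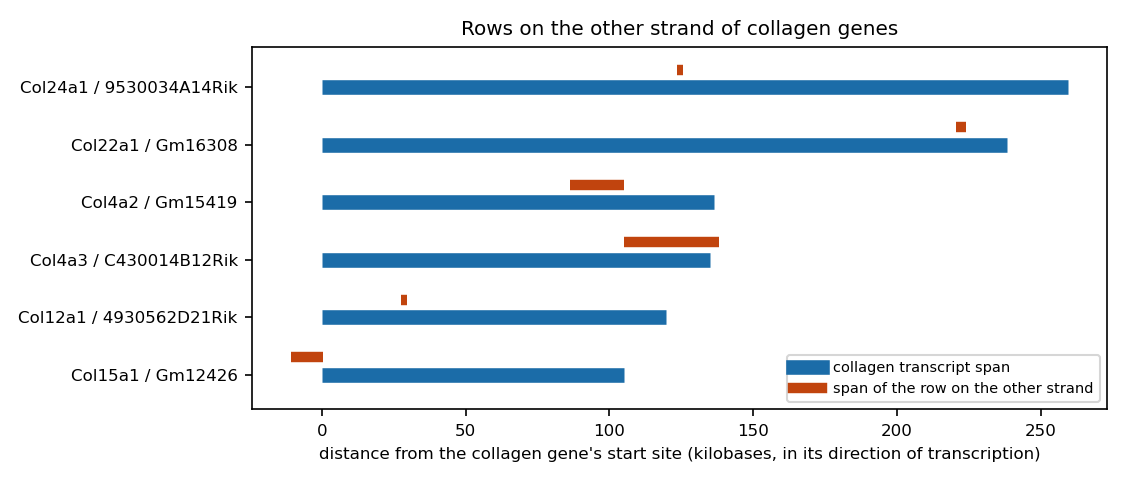
Span of 6 collagen transcripts (blue, start site at 0) and of the rows on their other strand (orange), in kilobases along the collagen gene's direction of transcription. Gm16308, 4930562D21Rik, 9530034A14Rik and Gm15419 lie wholly inside the collagen span, and Gm12426 and C430014B12Rik run past an end.

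Loading of Ctrl tibiae raised 5 of these 7 rows, where 3.07% of all 7192 rows were called higher. Since 5 of the 7 were picked after their levels were seen, the count is a description. Gm15419 held 80.0, 56.1, 74.4 and 63.1 CPM in non-loaded and 157, 126, 164 and 169 CPM in loaded limbs, with no overlap (1.17, SE 0.18, adjusted p = 1.16e-05). Gm16308 held 136, 57.2, 116 and 144 CPM non-loaded and 280, 309, 305 and 300 CPM loaded (1.44, SE 0.24, adjusted p = 0.00237), again without overlap, but missed the threshold with no replicate block (adjusted p = 0.0672). Gm12426 rose from 2.16 to 5.09 CPM to 18.8 to 37.9 CPM (2.72, SE 0.48, adjusted p = 9.2e-05). 9530034A14Rik (1.13, SE 0.24, adjusted p = 0.00198) and 4930562D21Rik (1.10, SE 0.24, adjusted p = 0.00284) also rose, and 4930562D21Rik missed the threshold without Ctrl mouse 2 (adjusted p = 0.1), 9530034A14Rik without Ctrl mouse 1 (adjusted p = 0.05). C430014B12Rik, opposite Col4a3, had -0.29 (SE 0.17, adjusted p = 0.448), and Nt5dc1 0.32 (SE 0.40, adjusted p = 0.789).

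In NT3 limbs none of the 7 passed for loading with edgeR or DESeq2, and 2 were at an unadjusted p under 0.05, with values from 0.01 for C430014B12Rik to 0.91 for 9530034A14Rik (SE 0.27, adjusted p = 0.159, and 0.00933 without NT3 mouse 2). For the difference in loading effect, Gm15419 had -0.93 (SE 0.26, adjusted p = 0.219, and 0.0169 without NT3 mouse 4) and Gm16308 -0.996 (SE 0.35, adjusted p = 0.61, and 0.012 with no filter on low counts). Between loaded limbs, 4930562D21Rik (-1.04, SE 0.25, adjusted p = 0.0168) and Gm15419 (-0.66, SE 0.18, adjusted p = 0.0298) were lower in NT3. Each lost the call when single mice were left out, at adjusted p up to 0.0839 and 0.157. Gm15419 also lost it in edgeR with library totals alone (adjusted p = 0.0604) and with no filter on low counts (adjusted p = 0.0506). Gm16308 had -0.84 (SE 0.24, adjusted p = 0.106), and passed with DESeq2 (adjusted p = 0.00769). C430014B12Rik was higher in every loaded NT3 limb (121 to 147 CPM) than in any loaded Ctrl limb (75.1 to 118 CPM). It was not called under any of 12 alternatives (log2 0.28 to 0.48, adjusted p 0.232 to 0.617, edgeR and DESeq2). Loaded limbs also separated, lower in NT3, for Gm16308 (Ctrl 280 to 309 CPM, NT3 78.5 to 238 CPM). The same held for Gm15419 (126 to 169, 71.1 to 116) and 9530034A14Rik (71.2 to 100, 39.1 to 67.9). 9530034A14Rik was not called under any of 12 alternatives (log2 -0.79 to -0.55, adjusted p 0.0571 to 0.252, edgeR and DESeq2). The share of all rows that separate was not counted. The Col22a1, Col12a1 and Col24a1 rows themselves were not called in that comparison and Col4a2 was not tested in it. Whether fragments of the opposite strand contribute to either member of a pair was not tested.

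**Figure D5:**
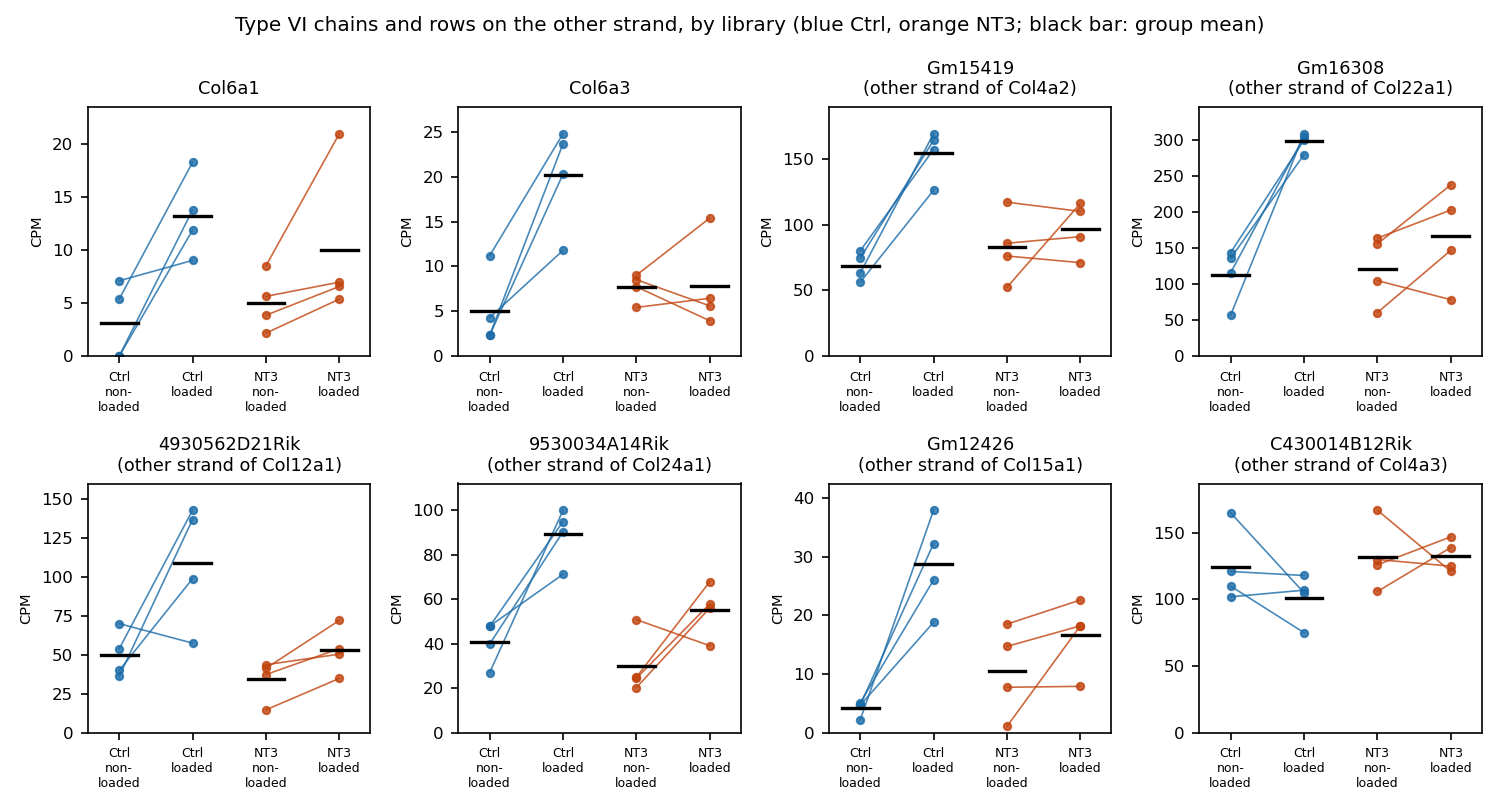
CPM in each library for Col6a1, Col6a3 and 6 rows on the other strand of collagen genes, limbs of a mouse joined, Ctrl in blue and NT3 in orange with group means as black bars. Gm15419 and Gm16308 have loaded Ctrl limbs above all non-loaded ones. C430014B12Rik ranges from 75.1 to 167 CPM, and its loaded and non-loaded limbs overlap in both genotypes. Its loaded NT3 limbs (121 to 147 CPM) lie above its loaded Ctrl limbs (75.1 to 118 CPM). For Gm15419, Gm16308 and 9530034A14Rik, loaded NT3 limbs lie below all loaded Ctrl limbs.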

How the data were processed

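Cortical bone RNA of 16 tibiae (8 mice, both limbs) was sequenced after ribosomal depletion and random priming, as single reads of 75 bases. The authors' tools, per the submitters' processing notes, include STAR 2.4.2a, featureCounts 1.4.6 and DESeq2, with mm10 as the genome. The annotation release and the strand setting are not given in the sources used here. The deposited fragment counts are raw whole numbers per gene row, and the deposited gene length in bases was used for levels per kilobase. Counts of 758394 to 1064391 per library limit the precision of rows near 10 fragments.

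All tests were fitted on the whole table with edgeR 4.0.16 (robust quasi-likelihood F test, R 4.3.3, limma 3.58.1), TMM scaling and filterByExpr with a minimum count of 10. P-values were adjusted by Benjamini-Hochberg over all rows tested, and an adjusted p under 0.05 is a call. CPM values are scaled by TMM. Genotype comparisons used 8 libraries each, and loading comparisons all 16 with mouse as a replicate block, since the design text pairs the limbs. The deviations of a mouse's limbs from their group means correlated at 0.045 to 0.178. The highest correlation with the loaded limb of another mouse of the genotype was -0.026 to 0.157. Only in Ctrl mouse 4 was it above that of the mouse's own limbs, 0.157 against 0.045. SE was derived from the F value. The fits were checked on simulated counts with a fixed spread and no mouse effect, with changes placed only in rows averaging 20 or more fragments. Only 4 of the 36 collagen rows average that many, so the check does not cover the others.

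Named rows are all 36 members, rows averaging 10 or more fragments that share at least 20 exon bases with a member on the other strand, and up to 6 called rows of each pathway list and comparison. The other rows on the opposite strand were added after their levels were seen. Members and lists were chosen with earlier results of these data known. Alternatives were DESeq2 1.42.0, its size factors in edgeR, library totals alone, no filter, no block, each mouse left out, and minimum means of 5 and 20. Gene positions are from GENCODE on GRCm38 and promoters from RefSeq on GRCm38.p6. The labels call the mice biological replicates, and each counts as 1.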

Additional observations from a re-analysis of the deposited data

Results flagged for a closer look

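Of 80 groups of 4 libraries tested for a single value far from the other 3, 4 stood out, and chance alone marks about 1 in 20 groups. Col4a4 was at 51.7 CPM in the loaded limb of NT3 mouse 2, against 19.6 to 25 CPM in the other 3 loaded NT3 limbs. That mouse also had the highest non-loaded Col4a4 value. Col6a1 was at 21 CPM in the loaded limb of NT3 mouse 4, against 5.39 to 6.99 CPM. The row 9530034A14Rik, on the other strand of Col24a1, was at 50.8 CPM in the non-loaded limb of NT3 mouse 2, against 20.3 to 25 CPM, and Col24a1 itself was highest in that limb at 48.6 CPM. Gm12426, on the other strand of Col15a1, was at 2.16 CPM in the non-loaded limb of Ctrl mouse 3, against 4.67 to 5.09 CPM.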

How the results depend on the processing

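At a minimum mean of 5 fragments 19 collagen rows would be described, and at 20 only 4. Of 1436 values of 113 log2 fold changes under alternatives, 1386 kept their direction and side of the threshold or moved within their SE, 33 lost and 10 gained a call, 7 uncalled ones moved by more than their SE across 0, and 0 called ones reversed. The cause of these changes was not tested. With single mice left out, collagen rows called numbered 0 to 2 between loaded genotypes, 1 to 3 for loading in Ctrl and 1 to 3 for the mean loading effect. Of all rows, loading in Ctrl called 169 with DESeq2, 171 with no replicate block and 163 to 325 with a mouse left out, in place of 293. Loading in NT3 called 19 with DESeq2, 19 with library totals, 5 with no replicate block and 17 to 44 with a mouse left out, in place of 30. The mean loading effect called 197 with DESeq2 and 205 with no replicate block, in place of 316. The difference called 17 with no filter and 0 with no replicate block, in place of 10, and the non-loaded genotype comparison 71 with no filter and 12 to 77 with a mouse left out, in place of 36. Col6a2, Col6a3 and Col12a1 were called in Ctrl with and without the replicate block.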
